A study of Rattus norvegicus with 19 samples.

Results

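Disease progression in rat HFpEF without drug treatment was followed by comparing left ventricles of untreated rats at week 9 with those of HFpEF rats at week 5. Members were chosen by sample title, 3 libraries named for HFpEF at 5 weeks and 3 named for untreated rats at 9 weeks, which is 6 of the 19 libraries of the series. The series tested empagliflozin and pirfenidone, alone and combined, in a model of heart failure with preserved ejection fraction (HFpEF). All rats were Sprague–Dawley and 24 weeks old at the start. HFpEF rats drank L-NAME, a blocker of nitric oxide synthase, at 0.5 g/L and ate a high-fat diet with 60% of kilocalories from fat for 5 weeks. Untreated rats went through the same induction and then had PBS by gavage for 4 weeks. The labels do not say whether L-NAME and the diet went on, and the study's discussion speaks of induction over the whole time. Control rats without L-NAME and high-fat diet were taken at week 5 (control 5w) and week 9 (control 9w), 3 libraries each. Groups began with 16 rats in equal sexes, whereas each library is labelled male. The study describes the replicates of a group as separate male hearts.

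The files held whole read counts per gene symbol. HFpEF libraries summed to 12205327, 9386791 and 10857636 counts and untreated libraries to 9951011, 10142209 and 9640990, within the 7430539 to 13017754 of all 19. Levels below are counts scaled with TMM factors to a fixed total per library (CPM), for replicates 1, 2 and 3 in that order, and a change is the log2 of untreated over HFpEF. The 12388 genes with enough counts were tested by edgeR quasi-likelihood in 1 model of the 7 groups. A differentially expressed gene (DEG) had an adjusted p under 0.05 and a change of at least 2-fold. The biological coefficient of variation within groups was 0.257, a single value for all tested genes and all 7 groups. It is not the spread of the HFpEF and untreated hearts alone.

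Ventricular muscle markers were abundant in all 6 libraries, but 3 libraries stood apart from their groups. Tnnt2, cardiac troponin T, was at 2956, 5037 and 7039 CPM in HFpEF and 10137, 3626 and 10283 CPM in untreated hearts. Untreated replicate 2 was the lowest of the untreated libraries for this gene and for the other 7 of the 8 ventricular markers. The same library carried atrial transcripts. Myl4, the atrial essential light chain, had 41, 19668 and 46 counts in untreated and 142, 54 and 94 in HFpEF hearts, and Sln, sarcolipin, had 3, 6378 and 6 and 6, 4 and 9. Nppa, atrial natriuretic peptide, was at 18.9, 9671 and 434 CPM in untreated and 2067, 251 and 1919 CPM in HFpEF hearts. For these 3 genes untreated replicate 2 was the highest of the 6 libraries.

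HFpEF replicate 1 carried transcripts of cartilage and bone. Col2a1, the collagen of cartilage, was at 1148, 0.0917 and 1.79 CPM in HFpEF and 0, 0.406 and 0.211 CPM in untreated hearts. Ibsp, bone sialoprotein, had 996, 8 and 12 counts in HFpEF hearts. This library was also the lowest for Myh6, the adult myosin heavy chain of rat ventricle, at 824, 5542 and 5863 CPM in HFpEF against 19379, 7239 and 12557 CPM in untreated hearts. HFpEF replicate 2 differed in sex-linked transcripts. Eif2s3y, which lies on the Y chromosome, was at 0, 78.4 and 0 CPM in HFpEF and 0, 0 and 0 CPM in untreated hearts, and at 113, 102 and 96.4 CPM in control 5w and 73.8, 75.4 and 73.9 CPM in control 9w. It thus had no count in 5 of the 6 model libraries, against their label of male, and LOC100911498 showed the reverse, with 1943, 0.0917 and 1581 CPM in HFpEF and 1375, 2177 and 1555 CPM in untreated hearts. In a principal component analysis of the 6 libraries, the first component (57.3% of variance) placed HFpEF at -75.6, 3.29 and -16.6 and untreated hearts at 57, -15 and 46.9. Untreated replicate 2 lay among the HFpEF libraries. The part of these transcripts in the results was not tested.

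Between weeks 5 and 9 of the model, hemoglobin and other red cell genes fell, the orphan nuclear receptors Nr4a1 and Nr4a2 and the antiproliferative gene Btg2 rose, and 3 genes of the rat major histocompatibility complex (MHC) had almost no counts at week 5 and clear levels in untreated hearts. Nr4a1, Btg2 and these MHC genes also rose from control 5w to control 9w. In the model there were 24 DEGs, of which 14 rose (0.113% of tested genes) and 10 fell (0.0807%), and for each of the 24 the groups did not overlap. Of all tested genes 7.18% lay wholly higher and 11.9% wholly lower in untreated hearts, and 2817 had an unadjusted p under 0.05, of which 1246 were higher (10.1%) and 1571 lower (12.7%). The median change of all tested genes was -0.01. The number of DEGs depended on single libraries, on the tool and on which libraries were fitted together. Without untreated replicate 2 there were 933, of which 537 rose (4.35% of 12342) and 396 fell (3.21%), and 23 of the 24 were kept. Without HFpEF replicate 2 there were 260, 208 of them lower, with 23 of the 24 kept. Leaving out HFpEF replicate 1 gave 4 DEGs and leaving out HFpEF replicate 3 gave 10, of which 8 were among the 24. Omission of either untreated replicate 1 or untreated replicate 3 gave 6. With the 6 libraries alone 1 gene was called, RT1-CE16. With HFpEF replicate 1 and untreated replicate 2 both left out, an alternative chosen after seeing the data, there were 104, and 14 of the 24 were kept. DESeq2 called 441 genes, 213 higher (1.72%) and 228 lower (1.84%), all 24 among them, and voom called 1076, 350 higher (2.83%) and 726 lower (5.86%), with 22 of them. These shares of all genes are the background of the list counts below, and brackets after a list's median give its lowest and highest value with 1 of the 6 libraries left out. The number of list members called with 1 of the 6 libraries left out is given wherever there were any.

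**Figure D1:**
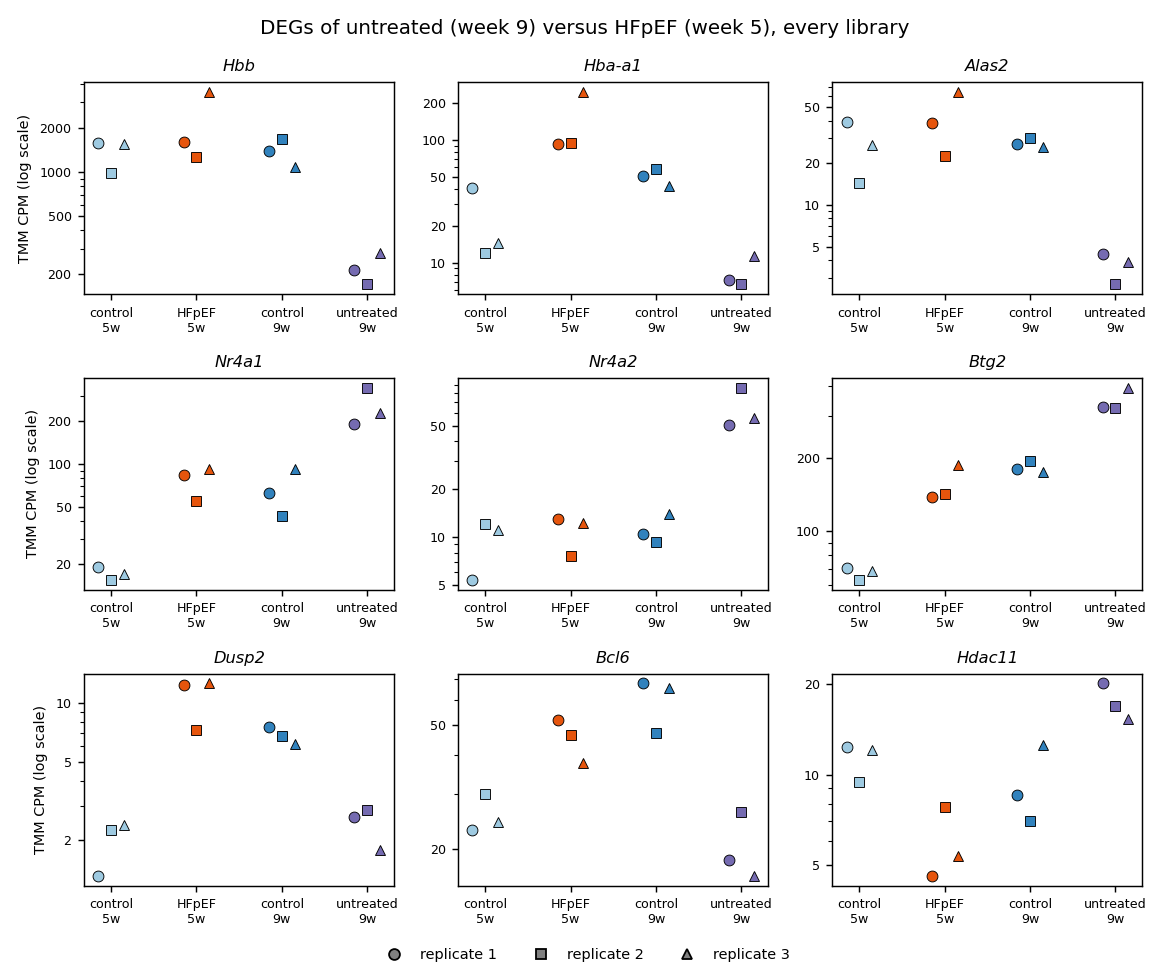
Level of 9 DEGs in each library, as TMM CPM on a log axis, for control and model hearts at weeks 5 and 9, where each point is 1 heart and its shape gives the replicate number. The 3 untreated hearts lie below the 3 HFpEF hearts for Hbb, Hba-a1, Alas2, Dusp2 and Bcl6 and above them for Nr4a1, Nr4a2, Btg2 and Hdac11.

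Red cell genes gave the largest group of falls among the 24 DEGs. With DESeq2 14 of 27 myeloid genes and 10 of 16 erythroid genes were lower. With voom it was 23 of 27 and 10 of 16. Globin genes are transcribed in red cell precursors, and their mRNA persists in young red cells after the nucleus is lost. Alas2 starts heme synthesis in these cells, and band 3, encoded by Slc4a1, carries anions across their membrane. In bulk RNA, fewer cells of a type and less RNA per cell cannot be told apart. The 16 tested genes of the erythroid list, Hbb the most abundant, summed to 2955, 2248 and 5391 CPM in HFpEF and 700.3, 455 and 754 CPM in untreated hearts. Control hearts had 2814, 1561 and 2277 CPM at week 5 and 2444, 2851 and 1967 CPM at week 9. Each untreated heart was lower than each HFpEF heart and each control heart. Of the list, 5 genes fell and 0 rose as DEGs, against 10 lower and 0 higher with DESeq2, 10 lower and 1 higher with voom and 11 lower and 2 higher at an unadjusted p under 0.05. Wholly lower were 11 of 16 (68.8% against 11.9% of all genes). The median change was -3.04 (-3.26 without HFpEF replicate 2 to -2.69 without HFpEF replicate 3), or -2.69 with 1 gene at its counting bound. Without untreated replicate 2 it was -3.01, and 1 rose and 10 fell. Leaving out HFpEF replicate 2 gave 9 that fell and 0 that rose.

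Hbb, a beta chain of hemoglobin, was at 1601, 1269 and 3531 CPM in HFpEF and 213, 170.5 and 279 CPM in untreated hearts. HFpEF replicate 3 was the highest and the groups lay far apart, with a change of -3.27 on the log2 scale (SE 0.606, adjusted p = 0.0444, edgeR quasi-likelihood, Benjamini-Hochberg). Hba-a1, an alpha chain, went from 93.6, 95.4 and 247 to 7.17, 6.66 and 11.4 CPM, again without overlap, a change of -4.11 on the log2 scale (SE 0.69, adjusted p = 0.0328, edgeR quasi-likelihood, Benjamini-Hochberg). Alas2 went from 38.8, 22.4 and 64.6 to 4.43, 2.68 and 3.9 CPM, a change of -3.52. Slc4a1 changed by -3.52 and the beta globin Hbb-bs by -3.70. Leaving out HFpEF replicate 3 brought Hba-a1 to -3.49 and Slc4a1 to -2.76. Globin genes are near-identical copies whose reads the counting may have split, so single values are uncertain, and Hba-a2 had 0 counts in all 6 libraries. Rhd, the Rhesus blood group protein and not in the list, had 63, 13 and 59 counts in HFpEF and 0, 1 and 3 in untreated hearts, a ratio of 29.3 with a 95% counting interval of 11.2 to 109.1. Its fitted change, which depends on the near-0 counts, was -4.71, and ran from -5.98 without untreated replicate 3 to -4.21 without untreated replicate 1. In controls Hba-a1 was at 41, 12 and 14.6 CPM at week 5 and 50.6, 58.2 and 42.4 CPM at week 9, and its change in the model minus that in controls was -5.28 on the log2 scale (SE 0.915, adjusted p = 0.0028, edgeR quasi-likelihood, Benjamini-Hochberg). The difference was also called for Hbb, Hbb-bs, Alas2 and Rhd, but not for Slc4a1. Slc4a1 was lower at week 9 in controls as well, at 40.1, 18.5 and 23.4 CPM at week 5 and 9.48, 10.5 and 7.68 CPM at week 9 without overlap, a change of -1.57 on the log2 scale (SE 0.59, adjusted p = 0.051, edgeR quasi-likelihood, Benjamini-Hochberg) that was not called. Its difference was -1.95 on the log2 scale (SE 0.879, adjusted p = 0.126, edgeR quasi-likelihood, Benjamini-Hochberg). All 6 genes lost their call without HFpEF replicate 1, HFpEF replicate 3, untreated replicate 1 or untreated replicate 3. They also lost it with the 6 libraries alone and with the replicate number as a block. Over the 12 alternatives the highest adjusted p (edgeR and the other tools, Benjamini-Hochberg) was 0.201 for Hbb, 0.174 for Hba-a1, 0.18 for Alas2, 0.188 for Hbb-bs, 0.317 for Slc4a1 and 0.319 for Rhd.

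Immediate early genes are switched on within minutes by hormones, stretch or stress, with no new protein needed. Many encode transcription factors or phosphatases that act on the same signal. Of 30 tested genes in this list 3 rose and 1 fell, against 6 higher and 2 lower at an unadjusted p under 0.05, 4 higher and 1 lower with DESeq2 and 4 higher and 3 lower with voom. Of these genes 6 lay wholly higher and 1 wholly lower in untreated hearts (20% and 3.33%, against 7.18% and 11.9% of all tested genes). With 1 library left out 1 (without HFpEF replicate 1) to 3 rose and 0 to 2 fell. The summed level was 3288, 2633 and 3529 CPM in HFpEF and 3426, 4304 and 3913 CPM in untreated hearts, which overlap, and the median change was 0.07 (0.061 without untreated replicate 2 to 0.26 without HFpEF replicate 3). Nr4a2 (Nurr1), an orphan nuclear receptor, was at 12.9, 7.61 and 12.2 CPM in HFpEF and 50.2, 86.4 and 55.6 CPM in untreated hearts. Untreated replicate 2 was the highest, and every untreated heart was above every HFpEF heart, with a change of 2.55 on the log2 scale (SE 0.312, adjusted p = 0.00209, edgeR quasi-likelihood, Benjamini-Hochberg). Its call was lost in 1 of 12 alternatives, the fit of the 6 libraries alone. Nr4a1 (Nur77), a close relative, went from 84.4, 55.7 and 93.2 to 190.4, 342 and 227 CPM, a change of 1.70 on the log2 scale (SE 0.313, adjusted p = 0.0436, edgeR quasi-likelihood, Benjamini-Hochberg). That call was lost without HFpEF replicate 1, HFpEF replicate 3, untreated replicate 1 or untreated replicate 3. Btg2, which slows the cell cycle, went from 138, 143 and 187 to 325, 322 and 392 CPM, a change of 1.15 on the log2 scale (SE 0.162, adjusted p = 0.00815, edgeR quasi-likelihood, Benjamini-Hochberg), and lost its call without HFpEF replicate 1. The highest adjusted p over the alternatives (edgeR and the other tools, Benjamini-Hochberg) was 0.12 for Nr4a2, 0.297 for Nr4a1 and 0.253 for Btg2.

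In controls Nr4a2 was at 5.37, 12 and 11.1 CPM at week 5 and 10.5, 9.35 and 14 CPM at week 9, which overlap, and the change in the model minus that in controls was 2.31 on the log2 scale (SE 0.434, adjusted p = 0.00387, edgeR quasi-likelihood, Benjamini-Hochberg). Nr4a1 and Btg2 rose in controls too, by 1.94 and 1.45, and the test of the difference did not call them. Dusp2, a nuclear phosphatase of MAP kinases, fell in the model from 12.3, 7.24 and 12.5 to 2.64, 2.84 and 1.79 CPM, a change of -2.13. In controls it rose from 1.32, 2.25 and 2.39 to 7.56, 6.76 and 6.18 CPM, and the difference was -3.90 on the log2 scale (SE 0.578, adjusted p = 0.00125, edgeR quasi-likelihood, Benjamini-Hochberg). The call of Dusp2 in the model was lost without any 1 of HFpEF replicates 1 and 3 and untreated replicates 1 and 3.

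Promoters are shown for genes that moved together. Cyclic AMP response elements are a known feature of immediate early genes, and GATA motifs of red cell genes, and these motifs were chosen after the genes' values were known. RefSeq promoters (build GRCr8, whereas the counts were made on rn6) were found for 21 of the 24 DEGs, and the 250 bases before the start were searched on both strands. TGACGTCA, the full element, is in 1.59% of 33469 promoters of this length. Its half-site TGACG, which the full element contains on both strands, is in 18.2%. The Btg2 window (chr13:48087691-48087940, minus strand) holds 1 full element and the Nr4a1 window (chr7:134259888-134260137, plus strand) 4 half-sites. Nr4a2, which rose, and Dusp2, which fell, have 1 half-site each. The half-site also occurs 2 times in Bcl6 and 1 time each in Mtm1, RT1-A3 and RT1-CE16, none of them in the immediate early list, so that 8 of the 21 windows hold it (38.1%). Capitals mark the full element in Btg2 and the half-sites, all on the opposite strand, in Nr4a1.
Btg2: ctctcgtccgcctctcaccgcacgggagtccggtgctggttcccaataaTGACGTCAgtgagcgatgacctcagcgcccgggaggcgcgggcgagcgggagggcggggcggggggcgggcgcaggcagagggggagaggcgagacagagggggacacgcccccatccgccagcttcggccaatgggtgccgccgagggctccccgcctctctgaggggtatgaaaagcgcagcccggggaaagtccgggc
Nr4a1: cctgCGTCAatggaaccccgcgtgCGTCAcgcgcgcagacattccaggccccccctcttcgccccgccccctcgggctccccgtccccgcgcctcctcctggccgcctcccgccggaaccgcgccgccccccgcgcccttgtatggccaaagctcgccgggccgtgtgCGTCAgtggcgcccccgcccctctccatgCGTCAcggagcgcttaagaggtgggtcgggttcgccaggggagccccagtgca
Of the forms of the GATA motif only AGATAA was searched, which is in 10.3% of promoters. It occurs 1 time each in the windows of Alas2 (chrX:22895200-22895449, plus strand) and Rhd, and not in those of Hbb, Hbb-bs and Hba-a1, so that 2 of the 21 windows hold it (9.52%). Windows without AGATAA can hold another form, as Hba-a1 does with TGATAA and Hbb-bs with TGATAG on the opposite strand. Such forms were not counted. Capitals mark AGATAA in Alas2.
Alas2: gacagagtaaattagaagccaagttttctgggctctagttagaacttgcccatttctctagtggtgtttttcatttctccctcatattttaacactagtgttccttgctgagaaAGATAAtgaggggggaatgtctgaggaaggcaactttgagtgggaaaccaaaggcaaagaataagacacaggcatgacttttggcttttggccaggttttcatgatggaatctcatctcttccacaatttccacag
A match describes the letters and is no evidence of binding.

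MHC class I and class II molecules present peptides to T cells, and the RT1 genes that encode them in the rat differ in number and sequence between strains. Reads of near-identical RT1 copies may have been split, so single values are uncertain. RT1-CE16, a class I gene, had 3, 1 and 3 counts in HFpEF and 583, 684 and 616 in untreated hearts, a ratio of 309.9 with a 95% counting interval of 150.1 to 771.7. RT1-Bb, a class II beta chain, had 0 counts in each HFpEF heart and 13.6, 25.3 and 11 CPM in untreated hearts, at least 39.8-fold higher against a floor of 3 counts per library. RT1-A3, a class I gene, also had 0 counts in HFpEF and 4.33, 3.41 and 5.58 CPM in untreated hearts, at least 12.4-fold higher against that floor. In controls RT1-CE16 was at 0.0942, 0 and 0 CPM at week 5 and 104, 101 and 91 CPM at week 9, and RT1-Bb at 0, 0 and 0 and 22, 18.1 and 18.2 CPM. At week 9 RT1-CE16 was also at 50.7 and 56.1 CPM in the PFD (pirfenidone) libraries and 50.4, 36.8 and 75.2 CPM in EMPA + PFD (empagliflozin with pirfenidone), whereas both EMPA libraries had 0 CPM for RT1-CE16, RT1-Bb and RT1-A3. The 3 genes were thus near 0 in the 6 libraries of week 5 and present in the libraries of week 9 except those of EMPA. Whether the rats of these groups differed in stock was not tested. RT1-CE16 kept its call in all 12 alternatives (highest adjusted p = 0.000288, edgeR and the other tools, Benjamini-Hochberg), and RT1-Bb and RT1-A3 lost theirs with the 6 libraries alone. These 3 were the DEGs among 37 tested genes of the list, against 9 higher and 10 lower at an unadjusted p under 0.05, 5 higher and 3 lower with DESeq2 and 8 higher and 6 lower with voom. Without untreated replicate 2, 6 rose and 4 fell, and without HFpEF replicate 2 3 rose and 2 fell. The other 4 fits with 1 library left out gave the same 2 counts as all libraries. Of the list 8 lay wholly higher and 8 wholly lower in untreated hearts (21.6% and 21.6%, against 7.18% and 11.9% of all tested genes). The list's median change was -0.14 (-0.21 without HFpEF replicate 3 to -0.052 without HFpEF replicate 2), the same with the 3 genes at their bound. B2m, the class I light chain and the most abundant of the list, was at 2749, 2833 and 3120.4 CPM in HFpEF and 2488, 2198 and 2582 CPM in untreated hearts.

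The remaining DEGs were in none of the lists. Bcl6, a transcriptional repressor, fell from 51.7, 46.2 and 37.5 to 18.4, 26.1 and 16.3 CPM, a change of -1.15. In controls it rose from 22.9, 29.9 and 24.4 to 67.8, 47.1 and 65.4 CPM, opposite to the model, and the difference was -2.37 on the log2 scale (SE 0.277, adjusted p = 0.000392, edgeR quasi-likelihood, Benjamini-Hochberg). Capg, an actin capping protein, fell from 209, 152 and 185 to 72.3, 99.6 and 89.6 CPM, a change of -1.06. Myo5c, an unconventional myosin, had 35, 14 and 28 counts in HFpEF and 1, 3 and 3 in untreated hearts, a ratio of 9.55 with a 95% counting interval of 4.42 to 24.5. These 3 genes were lower in each untreated heart than in any HFpEF heart. Hdac11, a histone deacetylase, rose from 4.59, 7.79 and 5.36 to 20.2, 16.9 and 15.4 CPM, a change of 1.56 on the log2 scale (SE 0.236, adjusted p = 0.0112, edgeR quasi-likelihood, Benjamini-Hochberg). Mtm1, a lipid phosphatase whose loss causes a myopathy, rose from 27.4, 40.8 and 44.6 to 82.8, 89 and 78.8 CPM, and Syde2, a GTPase activator, from 18.6, 24.2 and 21.7 to 44.5, 41.1 and 47.7 CPM. The spread among untreated hearts was smaller than the gap to HFpEF for Mtm1 and Syde2. Arr3, an arrestin, rose from 4.09, 3.76 and 3.22 to 11, 9.5 and 11 CPM, and Syt3, a synaptotagmin, from 4.09, 3.67 and 4.2 to 9.92, 7.79 and 9.48 CPM. Eya4, a transcription cofactor, rose by 1.07 and Arhgef37, an exchange factor, by 1.24. Slc17a7, a vesicular glutamate transporter, had 0, 3 and 3 counts in HFpEF and 76, 29 and 40 in untreated hearts, a ratio of 27.8 with a 95% counting interval of 12.5 to 77.1. The fitted change of Slc17a7 was 4.73, from 4.09 without HFpEF replicate 1 to 5.17 without HFpEF replicate 2. Without HFpEF replicate 1 all of these lost their call, and without untreated replicate 1 all but Syde2 did. Capg, Myo5c, Mtm1, Syt3, Arhgef37, Slc17a7 and Arr3 also lost it without HFpEF replicate 3 or untreated replicate 3, Hdac11 without HFpEF replicate 3, Bcl6 and Syde2 without untreated replicate 3, and Eya4 without untreated replicate 2, untreated replicate 3 or HFpEF replicate 2. Arr3, Hdac11, Myo5c, Capg, Eya4, Rhd, RT1-A3 and RT1-CE16 overlap another gene in RefSeq and the strand setting is not given in the sources used here, so reads of these pairs may be mixed.

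Heart muscle draws most of its energy from fatty acids, which beta oxidation shortens and the tricarboxylic acid cycle and respiratory chain burn. Summed levels of these lists were higher in untreated replicates 1 and 3 than in HFpEF hearts, but not in untreated replicate 2. The fatty acid list summed to 4575, 7728 and 11721 CPM in HFpEF and 26719, 5103 and 21028 CPM in untreated hearts. Untreated replicates 1 and 3 were the highest and replicate 2 lay among the HFpEF hearts. Of the fatty acid genes 0 lay wholly higher and 0 wholly lower in untreated hearts (0% and 0%, against 7.18% and 11.9% of all tested genes). Here edgeR called 0 of the 31 genes, against 17 higher and 0 lower at an unadjusted p under 0.05 (54.8% and 0%), 5 higher and 0 lower with DESeq2 and 18 higher and 0 lower with voom, and the median change was 1.19 (0.77 without untreated replicate 1 to 1.63 without untreated replicate 2). Without untreated replicate 2 it was 1.63, and 23 rose and 0 fell. Fabp3, the fatty acid carrier of heart muscle and the most abundant of the list, was at 354, 841 and 1318 CPM in HFpEF and 3561, 441 and 2797 CPM in untreated hearts. Hadhb, a subunit of the beta oxidation enzyme, was at 276, 309 and 518 and 1909, 253 and 1107 CPM, and its change of 1.57 on the log2 scale (SE 0.519, adjusted p = 0.118, edgeR quasi-likelihood, Benjamini-Hochberg) did not pass the test. With 1 library left out it ran from 0.89 to 2.04, and the highest value, without untreated replicate 2, passed at 2.04 on the log2 scale (SE 0.367, adjusted p = 0.0111, edgeR quasi-likelihood, Benjamini-Hochberg). For the tricarboxylic acid cycle 0 lay wholly higher and 0 wholly lower in untreated hearts (0% and 0%, against 7.18% and 11.9% of all tested genes), and edgeR called 0 of the 24 genes, against 19 higher and 0 lower at an unadjusted p under 0.05 (79.2% and 0%), 1 higher and 0 lower with DESeq2 and 5 higher and 0 lower with voom. All 24 fitted changes were positive with a median of 0.98 (0.56 without untreated replicate 1 to 1.37 without untreated replicate 2), and without untreated replicate 2 22 rose and 0 fell. For the respiratory chain 0 lay wholly higher and 0 wholly lower in untreated hearts (0% and 0%, against 7.18% and 11.9% of all tested genes), and edgeR called 0 of the 74 genes, against 15 higher and 0 lower at an unadjusted p under 0.05 (20.3% and 0%), 2 higher and 0 lower with DESeq2 and 3 higher and 0 lower with voom. Its median was 0.62 (0.39 without HFpEF replicate 1 to 0.95 without untreated replicate 2), and without untreated replicate 2 24 rose and 0 fell.

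In the list of PPAR-alpha targets and ketone metabolism 1 lay wholly higher and 1 wholly lower (5.26% and 5.26%), and edgeR called 0 of the 19 genes, against 8 higher and 2 lower at an unadjusted p under 0.05 (42.1% and 10.5%), 4 higher and 1 lower with DESeq2 and 4 higher and 2 lower with voom. The median was 0.83 (0.49 without untreated replicate 1 to 1.22 without untreated replicate 2), and 9 rose and 1 fell without untreated replicate 2 and 0 rose and 1 fell without HFpEF replicate 2. Pdk4, which restrains pyruvate oxidation, was at 55.2, 28.5 and 140.0 CPM in HFpEF and 413, 124 and 346 CPM in untreated hearts, and HFpEF replicate 3 was above untreated replicate 2. In glycolysis and glucose uptake 2 lay wholly higher and 0 wholly lower (8.7% and 0%), and edgeR called 0 of the 23 genes, against 9 higher and 0 lower at an unadjusted p under 0.05 (39.1% and 0%), 3 higher and 0 lower with DESeq2 and 4 higher and 0 lower with voom. The median was 0.68 (0.36 without untreated replicate 1 to 1.00 without untreated replicate 2), and 10 rose and 0 fell without untreated replicate 2.

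**Figure D2:**
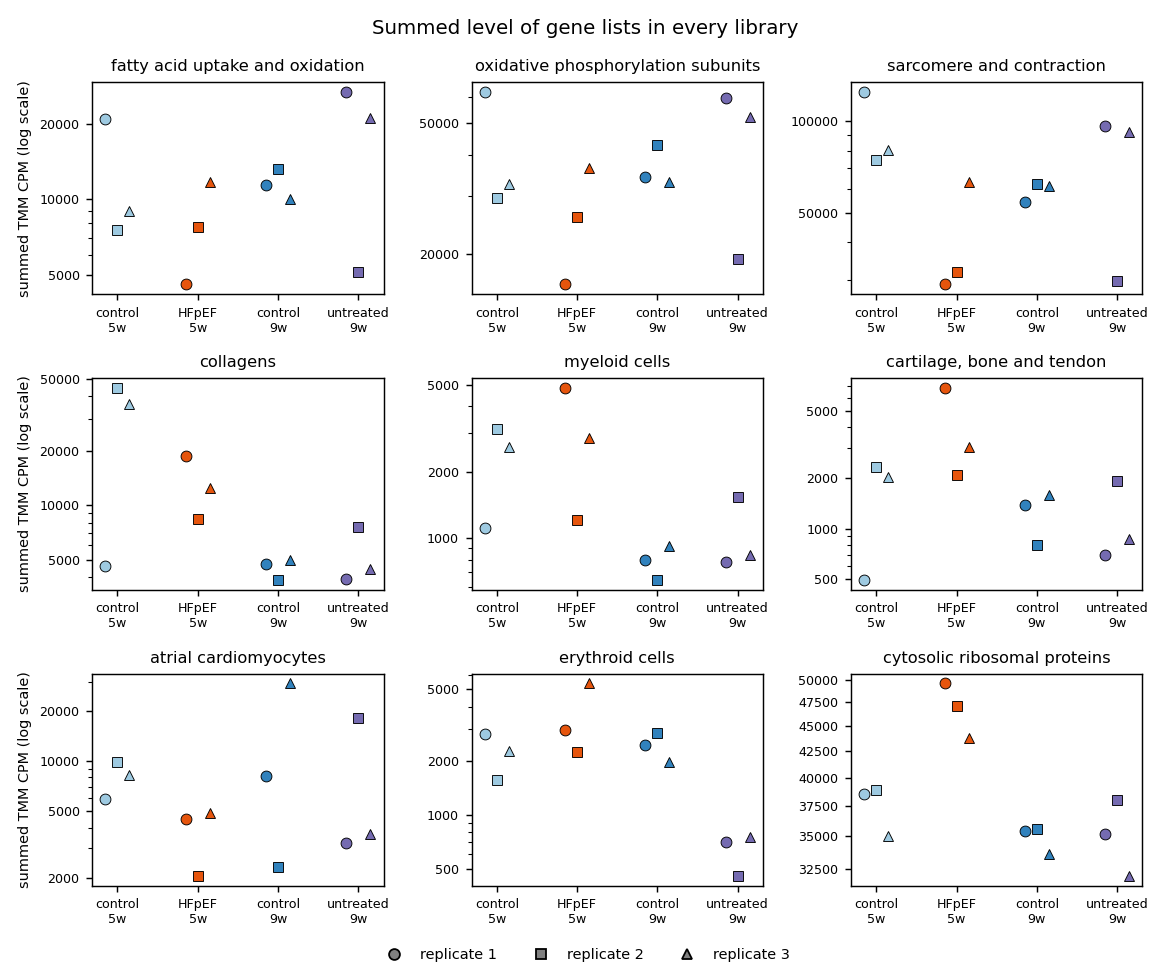
Summed level of 9 gene lists in each library, as TMM CPM on a log axis, for control and model hearts at weeks 5 and 9, where each point is 1 heart and its shape gives the replicate number. Untreated replicate 2 stands away from untreated replicates 1 and 3 for the fatty acid, oxidative phosphorylation, sarcomere and atrial lists, whereas all 3 untreated hearts are low for the erythroid list.

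Contraction depends on the sarcomere and on calcium that the sarcoplasmic reticulum releases and takes back. In the sarcomere list 4 lay wholly higher and 0 wholly lower in untreated hearts (12.9% and 0%, against 7.18% and 11.9% of all tested genes), and edgeR called 0 of the 31 genes, against 9 higher and 0 lower at an unadjusted p under 0.05 (29% and 0%), 1 higher and 0 lower with DESeq2 and 1 higher and 0 lower with voom. The median was 0.69 (0.46 without untreated replicate 1 to 1.14 without HFpEF replicate 3), and 12 rose and 0 fell without untreated replicate 2 and 1 rose and 0 fell without HFpEF replicate 3. Myh6 lay wholly higher, with HFpEF replicate 1 the lowest, and its change of 1.68 on the log2 scale (SE 0.751, adjusted p = 0.203, edgeR quasi-likelihood, Benjamini-Hochberg) did not pass the test. In the calcium and excitation list 10 lay wholly higher and 1 wholly lower in untreated hearts (24.4% and 2.44%, against 7.18% and 11.9% of all tested genes), and edgeR called 0 of the 41 genes, against 27 higher and 0 lower at an unadjusted p under 0.05 (65.9% and 0%), 16 higher and 0 lower with DESeq2 and 16 higher and 0 lower with voom. The median was 1.01 (0.78 without HFpEF replicate 1 to 1.26 without HFpEF replicate 3), and 18 rose and 0 fell without untreated replicate 2 and 1 rose and 0 fell without HFpEF replicate 2. Trdn, triadin of the calcium release complex, was at 27.8, 41.6 and 47.2 CPM in HFpEF and 103, 139 and 82.3 CPM in untreated hearts, without overlap. Atp2a2, the calcium pump SERCA2, was at 1091, 1774 and 3200.3 and 9178, 2414 and 6318 CPM, with HFpEF replicate 3 above untreated replicate 2, and its change of 1.56 on the log2 scale (SE 0.487, adjusted p = 0.107, edgeR quasi-likelihood, Benjamini-Hochberg) did not pass the test. With 1 library left out it ran from 1.11 to 2.06, and without untreated replicate 2 it passed at 1.94 on the log2 scale (SE 0.441, adjusted p = 0.0179, edgeR quasi-likelihood, Benjamini-Hochberg).

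The atrial list, with Nppa the most abundant, summed to 4489, 2047 and 4878 CPM in HFpEF and 3249, 18184 and 3645 CPM in untreated hearts, where untreated replicate 2 was the highest. Of this list 6 lay wholly higher and 1 wholly lower in untreated hearts (30% and 5.0%, against 7.18% and 11.9% of all tested genes), and edgeR called 0 of the 20 genes, against 10 higher and 1 lower at an unadjusted p under 0.05 (50% and 5%), 7 higher and 0 lower with DESeq2 and 2 higher and 0 lower with voom. Its median was 1.22 (0.54 without untreated replicate 2 to 1.21 without HFpEF replicate 3), or 0.998 with 1 gene at its bound, and 0.54 without untreated replicate 2. Of its genes 2 rose and 0 fell without untreated replicate 2 and 1 rose and 0 fell without HFpEF replicate 2. Cacna1h, a T-type calcium channel in this list, was at 15.6, 29.3 and 17.7 CPM in HFpEF and 41.7, 74.8 and 43.6 CPM in untreated hearts, without overlap and highest in untreated replicate 2. The conduction list, led by Cacna1g, summed to 263, 197 and 201 and 213, 557 and 241 CPM, again highest in that library, and Isl1 had 0 counts in all 6. Here 2 lay wholly higher and 0 wholly lower (16.7% and 0%), and edgeR called 0 of the 12 genes, against 3 higher and 1 lower at an unadjusted p under 0.05 (25% and 8.33%), 1 higher and 0 lower with DESeq2 and 2 higher and 1 lower with voom. The median was 0.78 (0.31 without untreated replicate 2 to 1.02 without HFpEF replicate 1), and 1 rose and 0 fell without untreated replicate 2 and 2 rose and 0 fell without HFpEF replicate 2. The part of atrial and conduction transcripts in the results was not tested. In the hypertrophy and fetal list 1 lay wholly higher and 2 wholly lower (4.55% and 9.09%), and edgeR called 0 of the 22 genes, against 3 higher and 5 lower at an unadjusted p under 0.05 (13.6% and 22.7%), 1 higher and 5 lower with DESeq2 and 1 higher and 6 lower with voom. The median was -0.28 (-0.58 without HFpEF replicate 2 to 0.088 without HFpEF replicate 1), and 2 rose and 3 fell without untreated replicate 2 and 0 rose and 4 fell without HFpEF replicate 2. In the skeletal muscle list 1 lay wholly higher and 0 wholly lower (6.67% and 0%), and edgeR called 0 of the 15 genes, against 3 higher and 0 lower at an unadjusted p under 0.05 (20% and 0%), 1 higher and 0 lower with DESeq2 and 4 higher and 0 lower with voom. The median was 0.06 (-0.057 without HFpEF replicate 1 to 0.31 without HFpEF replicate 3), and 3 rose and 0 fell without untreated replicate 2.

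Cardiac fibroblasts secrete collagens and other matrix proteins into the space between muscle cells, and matrix builds up in fibrosis. The collagen list summed to 18729, 8352 and 12499 CPM in HFpEF and 3900.3, 7621 and 4413 CPM in untreated hearts, without overlap and highest in HFpEF replicate 1. Col3a1, the most abundant, was at 9269.7, 4081 and 6497 and 1211, 3314 and 1371 CPM. Of the list 1 lay wholly higher and 5 wholly lower in untreated hearts (4.76% and 23.8%, against 7.18% and 11.9% of all tested genes), and edgeR called 0 of the 21 genes, against 0 higher and 10 lower at an unadjusted p under 0.05 (0% and 47.6%), 0 higher and 1 lower with DESeq2 and 0 higher and 8 lower with voom, with a median of -1.04 (-1.51 without untreated replicate 2 to -0.38 without HFpEF replicate 1). With untreated replicate 2 left out, edgeR again called 0 of them, against 0 higher and 9 lower at an unadjusted p under 0.05, and 0 rose and 1 fell without HFpEF replicate 2. For non-collagen matrix 0 lay wholly higher and 11 wholly lower in untreated hearts (0% and 24.4%, against 7.18% and 11.9% of all tested genes), and edgeR called 0 of the 45 genes, against 0 higher and 20 lower at an unadjusted p under 0.05 (0% and 44.4%), 0 higher and 5 lower with DESeq2 and 0 higher and 21 lower with voom, with a median of -1.01 (-1.52 without untreated replicate 2 to -0.62 without HFpEF replicate 1). There 0 rose and 6 fell without untreated replicate 2 and 0 rose and 2 fell without HFpEF replicate 2. The fibroblast list, led by Gsn, summed to 22866, 19519.7 and 19414 and 9921, 17948 and 8587 CPM, without overlap. Here 0 lay wholly higher and 5 wholly lower in untreated hearts (0% and 25%, against 7.18% and 11.9% of all tested genes), and edgeR called 0 of the 20 genes, against 0 higher and 7 lower at an unadjusted p under 0.05 (0% and 35%), 0 higher and 1 lower with DESeq2 and 0 higher and 11 lower with voom, with a median of -0.94 (-1.42 without untreated replicate 2 to -0.71 without HFpEF replicate 1). Without untreated replicate 2, 0 rose and 7 fell. Postn, periostin of activated fibroblasts, was at 1179, 127 and 879.6 CPM in HFpEF and 33.3, 316 and 98.2 CPM in untreated hearts, which overlap.

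The cartilage, bone and tendon list, led by Mgp, summed to 6877, 2074 and 3069 CPM in HFpEF and 699, 1909 and 872 CPM in untreated hearts, highest in HFpEF replicate 1. Here 0 lay wholly higher and 2 wholly lower (0% and 8.7%), and edgeR called 0 of the 23 genes, against 1 higher and 12 lower at an unadjusted p under 0.05 (4.35% and 52.2%), 1 higher and 3 lower with DESeq2 and 1 higher and 4 lower with voom. The median was -2.71 (-3.17 without HFpEF replicate 2 to 0.064 without HFpEF replicate 1), or -1.61 with 3 genes at their bound, and 1 rose and 2 fell without untreated replicate 2 and 0 rose and 3 fell without HFpEF replicate 2. The Schwann cell list, led by Scn7a, summed to 2658, 803 and 1115 and 688, 1466 and 740.0 CPM, also highest in HFpEF replicate 1. Here 0 lay wholly higher and 2 wholly lower (0% and 11.1%), and edgeR called 0 of the 18 genes, against 0 higher and 5 lower at an unadjusted p under 0.05 (0% and 27.8%), 0 higher and 2 lower with DESeq2 and 1 higher and 3 lower with voom. The median was -1.04 (-1.65 without untreated replicate 2 to 0.26 without HFpEF replicate 1), and 0 rose and 4 fell without untreated replicate 2. For both lists the median turned positive without HFpEF replicate 1. The mesothelium list, led by Wt1, summed to 135, 174 and 182 and 122, 154 and 145 CPM, which overlap. Here 0 lay wholly higher and 3 wholly lower (0% and 33.3%), and edgeR called 0 of the 9 genes, against 0 higher and 4 lower at an unadjusted p under 0.05 (0% and 44.4%), 0 higher and 2 lower with DESeq2 and 0 higher and 3 lower with voom. The median was -1.04 (-1.59 without untreated replicate 2 to -0.35 without HFpEF replicate 1), and 0 rose and 1 fell without untreated replicate 2 and 0 rose and 2 fell without HFpEF replicate 2. The part of these cell types in the matrix results was not tested. In the smooth muscle and pericyte list 3 lay wholly higher and 1 wholly lower (16.7% and 5.56%), and edgeR called 0 of the 18 genes, against 2 higher and 0 lower at an unadjusted p under 0.05 (11.1% and 0%), 0 higher and 0 lower with DESeq2 and 0 higher and 0 lower with voom. The median was 0.03 (-0.10 without untreated replicate 3 to 0.19 without untreated replicate 2). In TGF-beta and Wnt signalling 5 lay wholly higher and 3 wholly lower (14.3% and 8.57%), and edgeR called 0 of the 35 genes, against 5 higher and 6 lower at an unadjusted p under 0.05 (14.3% and 17.1%), 2 higher and 2 lower with DESeq2 and 0 higher and 4 lower with voom. The median was -0.17 (-0.42 without untreated replicate 2 to 0.004 without HFpEF replicate 1), the same with 2 genes at their bound, and 1 rose and 2 fell without untreated replicate 2.

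Macrophages reside in the healthy heart and clear debris. The myeloid list, led by Lyz2, summed to 4836, 1206 and 2849 CPM in HFpEF and 784, 1547 and 837 CPM in untreated hearts. HFpEF replicate 1 was the highest, and HFpEF replicate 2 lay below untreated replicate 2, so the groups overlap. Of the list 0 lay wholly higher and 5 wholly lower in untreated hearts (0% and 18.5%, against 7.18% and 11.9% of all tested genes), and edgeR called 0 of the 27 genes, against 0 higher and 22 lower at an unadjusted p under 0.05 (0% and 81.5%), 0 higher and 14 lower with DESeq2 and 0 higher and 23 lower with voom, with a median of -1.29 (-1.75 without untreated replicate 2 to -0.83 without HFpEF replicate 1). Without untreated replicate 2 the median was -1.75. Of the myeloid genes 0 rose and 17 fell without untreated replicate 2 and 0 rose and 18 fell without HFpEF replicate 2. Gpnmb, a glycoprotein of lipid-laden macrophages, was at 495, 69.6 and 219.9 CPM in HFpEF and 23.6, 53.9 and 25.2 CPM in untreated hearts. Fcer1g, an adaptor of Fc receptors, was at 103, 35.9 and 61.4 and 17.5, 30 and 19.6 CPM. For both the groups did not overlap and HFpEF replicate 1 was the highest, and neither change passed the test, with -2.93 on the log2 scale (SE 0.684, adjusted p = 0.0662, edgeR quasi-likelihood, Benjamini-Hochberg) for Gpnmb and -1.57 for Fcer1g. With 1 library left out Gpnmb ran from -3.42 to -2.07 and Fcer1g from -1.87 to -1.12. Both were DEGs without untreated replicate 2, where Gpnmb was at its lowest, -3.42 on the log2 scale (SE 0.811, adjusted p = 0.0203, edgeR quasi-likelihood, Benjamini-Hochberg). For cytokines and chemokines 2 lay wholly higher and 12 wholly lower in untreated hearts (4.44% and 26.7%, against 7.18% and 11.9% of all tested genes), and edgeR called 0 of the 45 genes, against 3 higher and 14 lower at an unadjusted p under 0.05 (6.67% and 31.1%), 1 higher and 7 lower with DESeq2 and 1 higher and 15 lower with voom. The median was -0.60 (-0.90 without untreated replicate 2 to -0.23 without HFpEF replicate 1), and 1 rose and 6 fell without untreated replicate 2 and 0 rose and 8 fell without HFpEF replicate 2. The lymphocyte list, led by Cd4, summed to 349, 196 and 259 and 191, 198 and 115 CPM, which overlap. Here 0 lay wholly higher and 5 wholly lower (0% and 22.7%), and edgeR called 0 of the 22 genes, against 0 higher and 3 lower at an unadjusted p under 0.05 (0% and 13.6%), 0 higher and 1 lower with DESeq2 and 0 higher and 7 lower with voom. The median was -0.56 (-0.73 without untreated replicate 1 to -0.34 without untreated replicate 3), and 0 rose and 1 fell without untreated replicate 2 and 0 rose and 2 fell without HFpEF replicate 2. For interferon response genes 1 lay wholly higher and 10 wholly lower in untreated hearts (3.45% and 34.5%, against 7.18% and 11.9% of all tested genes), and edgeR called 0 of the 29 genes, against 0 higher and 8 lower at an unadjusted p under 0.05 (0% and 27.6%), 0 higher and 2 lower with DESeq2 and 0 higher and 2 lower with voom. The median was -0.37 (-0.43 without HFpEF replicate 1 to -0.22 without HFpEF replicate 2), and 0 rose and 1 fell without untreated replicate 2. Mx1, an antiviral GTPase, was at 40.3, 56.6 and 48.7 CPM in HFpEF and 16, 21.5 and 21.2 CPM in untreated hearts, without overlap. In the NF-kB and PKC list 4 lay wholly higher and 2 wholly lower (8.16% and 4.08%), and edgeR called 0 of the 49 genes, against 4 higher and 4 lower at an unadjusted p under 0.05 (8.16% and 8.16%), 1 higher and 1 lower with DESeq2 and 1 higher and 2 lower with voom. The median was -0.0028 (-0.042 without HFpEF replicate 3 to 0.075 without untreated replicate 1), and 1 rose and 2 fell without untreated replicate 2 and 0 rose and 1 fell without HFpEF replicate 2.

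Cytosolic ribosomal proteins form the protein part of the ribosome and are produced in matched amounts. The list summed to 49589, 47123 and 43802 CPM in HFpEF and 35150.3, 38040.4 and 31981 CPM in untreated hearts, without overlap. Of the list 1 lay wholly higher and 68 wholly lower in untreated hearts (1.33% and 90.7%, against 7.18% and 11.9% of all tested genes), and edgeR called 0 of the 75 genes, against 0 higher and 64 lower at an unadjusted p under 0.05 (0% and 85.3%), 0 higher and 0 lower with DESeq2 and 0 higher and 0 lower with voom. The median change was -0.41 (-0.47 without untreated replicate 2 to -0.35 without untreated replicate 3), under the threshold of 2-fold, and it was negative with TMM, RLE and upper quartile scaling, and 0 rose and 1 fell without untreated replicate 2. Rps15a was at 547, 511 and 498 CPM in HFpEF and 374, 384 and 322 CPM in untreated hearts, and Rpl36a at 298, 261 and 238 and 169, 201 and 158 CPM, both without overlap. In the endothelial list 3 lay wholly higher and 0 wholly lower (8.57% and 0%), and edgeR called 0 of the 35 genes, against 2 higher and 0 lower at an unadjusted p under 0.05 (5.71% and 0%), 0 higher and 0 lower with DESeq2 and 1 higher and 0 lower with voom. The median was 0.16 (-0.011 without HFpEF replicate 1 to 0.33 without HFpEF replicate 2). In the adipocyte list 2 lay wholly higher and 0 wholly lower (13.3% and 0%), and edgeR called 0 of the 15 genes, against 2 higher and 2 lower at an unadjusted p under 0.05 (13.3% and 13.3%), 1 higher and 0 lower with DESeq2 and 0 higher and 2 lower with voom. The median was 0.21 (-0.10 without untreated replicate 1 to 0.21 without untreated replicate 3), and 2 rose and 1 fell without untreated replicate 2. In the cell cycle list 0 lay wholly higher and 10 wholly lower (0% and 24.4%), and edgeR called 0 of the 41 genes, against 0 higher and 7 lower at an unadjusted p under 0.05 (0% and 17.1%), 0 higher and 0 lower with DESeq2 and 0 higher and 4 lower with voom. The median was -0.62 (-0.96 without untreated replicate 2 to -0.39 without untreated replicate 1). In the circadian clock list 0 lay wholly higher and 2 wholly lower (0% and 10.5%), and edgeR called 0 of the 19 genes, against 1 higher and 4 lower at an unadjusted p under 0.05 (5.26% and 21.1%), 0 higher and 2 lower with DESeq2 and 0 higher and 3 lower with voom. The median was -0.14 (-0.21 without HFpEF replicate 2 to -0.058 without HFpEF replicate 3), and 0 rose and 1 fell without untreated replicate 2 and 0 rose and 2 fell without HFpEF replicate 2. In the nitric oxide and renin-angiotensin list 0 lay wholly higher and 5 wholly lower (0% and 14.3%), and edgeR called 0 of the 35 genes, against 2 higher and 5 lower at an unadjusted p under 0.05 (5.71% and 14.3%), 0 higher and 1 lower with DESeq2 and 1 higher and 3 lower with voom. The median was 0.06 (-0.025 without HFpEF replicate 1 to 0.13 without HFpEF replicate 2), and 0 rose and 2 fell without untreated replicate 2 and 0 rose and 2 fell without HFpEF replicate 2. In the heat shock and chaperone list 2 lay wholly higher and 1 wholly lower (6.67% and 3.33%), and edgeR called 0 of the 30 genes, against 10 higher and 1 lower at an unadjusted p under 0.05 (33.3% and 3.33%), 0 higher and 0 lower with DESeq2 and 1 higher and 0 lower with voom. The median was 0.31 (0.17 without HFpEF replicate 2 to 0.50 without HFpEF replicate 3), and 5 rose and 0 fell without untreated replicate 2. In the unfolded protein and stress response list 1 lay wholly higher and 3 wholly lower (3.03% and 9.09%), and edgeR called 0 of the 33 genes, against 1 higher and 4 lower at an unadjusted p under 0.05 (3.03% and 12.1%), 0 higher and 0 lower with DESeq2 and 0 higher and 1 lower with voom. The median was -0.18 (-0.36 without HFpEF replicate 2 to -0.039 without HFpEF replicate 1). In the antioxidant and NRF2 list 2 lay wholly higher and 6 wholly lower (5.88% and 17.6%), and edgeR called 0 of the 34 genes, against 4 higher and 7 lower at an unadjusted p under 0.05 (11.8% and 20.6%), 0 higher and 1 lower with DESeq2 and 0 higher and 4 lower with voom. The median was -0.07 (-0.091 without HFpEF replicate 2 to 0.054 without HFpEF replicate 1), and 3 rose and 2 fell without untreated replicate 2 and 0 rose and 2 fell without HFpEF replicate 2. In the sex-linked list 1 lay wholly higher and 0 wholly lower (20% and 0%), and edgeR called 0 of the 5 genes, against 0 higher and 2 lower at an unadjusted p under 0.05 (0% and 40%), 0 higher and 0 lower with DESeq2 and 0 higher and 0 lower with voom. The median was -0.0042 (-0.087 without untreated replicate 2 to 0.11 without HFpEF replicate 1), or 0 with 2 genes at their bound.

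**Figure D3:**
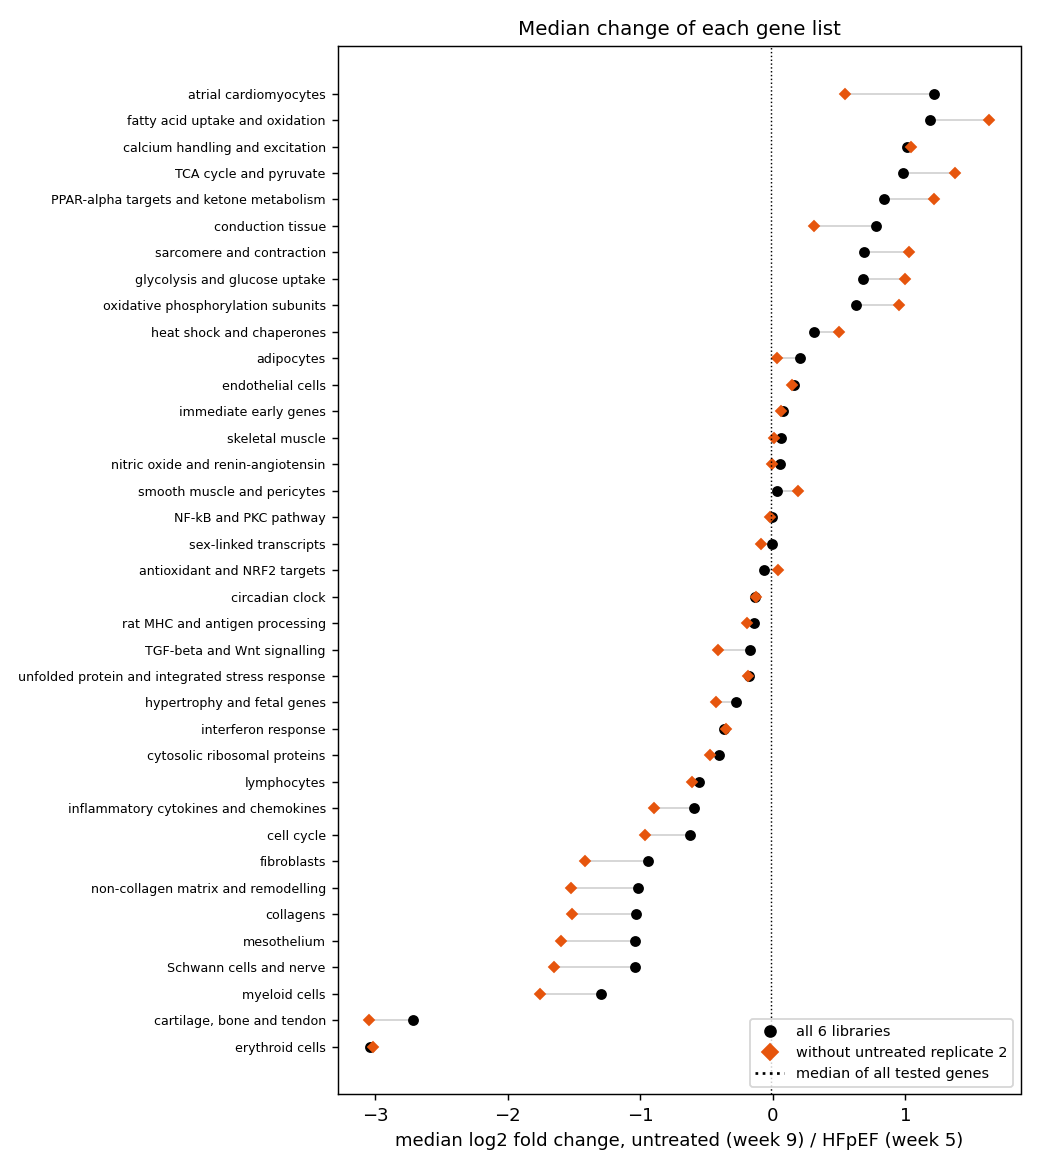
Median log2 change of each gene list from HFpEF (week 5) to untreated (week 9), with all 6 libraries (circles) and without untreated replicate 2 (diamonds), where the dotted line is the median of all tested genes. With all 6 libraries the erythroid list has the lowest median, -3.04, and without untreated replicate 2 the cartilage, bone and tendon list is lowest at -3.04, next to -3.01 for the erythroid list.

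Control hearts changed over the same 4 weeks. Between control 5w and control 9w 1817 genes were DEGs (14.7% of 12388), 924 higher (7.46%) and 893 lower (7.21%). The test of the difference of the time changes, model minus control, called 1489 (12%), 787 higher (6.35%) and 702 lower (5.67%). The time changes share no library, and across 12388 genes, which are not independent replicates, their Pearson correlation was 0.201 and Spearman's 0.0874. With 1 library left out Pearson's ran from 0.0814 (without untreated replicate 2) to 0.292 (without control 5w replicate 1) and Spearman's from -0.0062 (without control 5w replicate 2) to 0.223 (without control 5w replicate 1). Of the 24 DEGs of the model, 6 were DEGs in the same direction in controls, 2 in the opposite direction (Dusp2 and Bcl6), and 13 were DEGs of the difference. Leaving out untreated replicate 1 gave 877 DEGs of the difference, and leaving out untreated replicate 2 gave 2241. Omission of control 9w replicate 2 gave 975 for the difference and 1206 in controls. Control libraries also varied, with Myl4 at 305, 2.95 and 1381 CPM in control 9w and Col1a1, a fibrillar collagen, at 496, 9900.5 and 7974 CPM in control 5w. Replicates 1 and 3 were the high ones for Myl4, and replicate 1 the low one for Col1a1.

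The genes below are a selection from the DEGs of the difference, made after their values were seen. Hcn4, a pacemaker channel, fell in controls from 48, 54.7 and 59 to 1.35, 0.369 and 2.49 CPM, and was at 4.52, 1.65 and 3.04 CPM in HFpEF and 3.17, 4.3 and 9.69 CPM in untreated hearts, which overlap. The difference was 6.08 on the log2 scale (SE 0.701, adjusted p = 0.000392, edgeR quasi-likelihood, Benjamini-Hochberg). Adh1, alcohol dehydrogenase, rose in controls from 10.2, 1.09 and 1.67 to 46.6, 26.6 and 31.2 CPM. In the model it was at 53.5, 46.1 and 23.1 and 5.91, 4.71 and 4.43 CPM, lower in each untreated heart, and the difference was -6.07. Angptl4, an inhibitor of lipoprotein lipase, rose in controls from 1.22, 1.32 and 0.955 to 9.93, 11.8 and 7.98 CPM, against 71.3, 23.7 and 49.8 and 12.4, 19.2 and 19.8 CPM in the model. The difference was -4.56.

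The lists with the largest shares of rises in controls were endothelial cells with 23 of 35 (65.7%), interferon response with 15 of 29 (51.7%), immediate early genes with 14 of 30 (46.7%) and the clock with 8 of 19 (42.1%), and of each list 17 (48.6%), 14 (48.3%), 11 (36.7%) and 8 (42.1%) were lower in the difference, against 5.67% of all genes. With 1 library of the control or model groups left out these counts ran from 10 to 21 (lowest without HFpEF replicate 2 or untreated replicate 1), 13 to 17, 8 to 12 and 8 to 11. With all libraries the erythroid list had the largest share lower in the difference, 8 of 16 (50%, and 6 to 10 with 1 library left out), while 3 were higher. This order was not stable. Without untreated replicate 1 it was 6 of 16, a smaller share than the 13 of 29 of the interferon response list. The largest shares higher in the difference were in the tricarboxylic acid cycle with 15 of 24 (62.5%), glycolysis with 14 of 23 (60.9%) and calcium handling with 14 of 41 (34.1%), against 6.35% of all genes. In controls 7, 11 and 6 genes of these 3 lists fell. With 1 library left out the 3 counts higher in the difference ran from 7 to 22, 8 to 18 and 6 to 20, lowest without untreated replicate 1 and highest without untreated replicate 2. The largest shares of falls in controls were in the fibroblast list with 15 of 20 (75%), the myeloid list with 16 of 27 (59.3%) and non-collagen matrix with 24 of 45 (53.3%). Control 5w replicate 1 stood apart from its group as the lowest in all 3 of these lists. The fibroblast list summed to 9255, 46793 and 38424 CPM in control 5w and 9821, 6835 and 9842 CPM in control 9w. Non-collagen matrix summed to 7827, 36381 and 30671 CPM and 9646, 8447 and 9860 CPM, so both overlap. The myeloid list summed to 1110, 3124 and 2595 CPM in control 5w and 795, 646 and 921 CPM in control 9w, without overlap. In the difference edgeR called 0 higher and 1 lower of the myeloid list and 1 higher and 4 lower of non-collagen matrix. Leaving out control 5w replicate 1 raised the higher ones to 8 for non-collagen matrix and 4 for the fibroblast list. With all libraries, of the fibroblast list it called 0, against 3 higher and 0 lower at an unadjusted p under 0.05, 1 higher and 0 lower with DESeq2 and 5 higher and 2 lower with voom. Per1, a clock gene, rose in controls from 54.9, 71.9 and 72.2 to 475, 554 and 424 CPM, and was at 283, 139 and 313 and 234, 282 and 255 CPM in the model, which overlap. The sources used here do not give the time of day of collection.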

How the data were processed

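RNA of 19 left ventricles was sequenced, and 6 libraries are compared here. The authors deposited raw counts per gene, made with Trim Galore, HISAT2, the rn6 genome and HTSeq, whose versions, overlap mode and strand setting are not given in the sources used here. Files were joined by gene symbol, because 1 file lists its genes in another order. A table of the whole series was not used separately.

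Libraries were scaled by TMM and filtered with filterByExpr to 12388 genes. They were tested by quasi-likelihood in edgeR 4.0.16 (R 4.3.3) over 7 groups, with Benjamini-Hochberg adjustment, at an adjusted p under 0.05 and a log2 change of 1 or more in size. The code was tested on simulated data. Alternatives were RLE and upper quartile scaling, filters, DESeq2 1.42.0, voom with quality weights in limma 3.58.1, the 6 libraries alone, adjusted p alone, replicate number as a block, and leaving out libraries. Total counts were 9386791 to 12205327 in the 6 libraries, so genes at or under 3 counts carry little information.

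The members and lists were chosen with earlier results of these data known. The rule for named genes took every DEG, the largest changes without untreated replicate 2, the most abundant gene and the 3 genes with the smallest p in each list, cell type markers, a fixed set, and the largest DEGs of the difference of the time changes. The text gives a selection of these. Some genes are not reported here. Counting intervals are exact (Clopper-Pearson) and, like the floors, cover counting error only. Overlaps of genes and promoters came from RefSeq (GRCr8).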

Additional observations from a re-analysis of the deposited data

Results flagged for a closer look

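The change from week 5 to week 9 differed between model and control hearts for 1489 genes in the test of the difference, and 13 of the 24 DEGs were among them. Among those that fell in the model, the difference of the changes was -3.57 for Alas2, -5.28 for Hba-a1, -3.29 for Hbb, -4.38 for Hbb-bs and -4.51 for Rhd, which are 5 of the 6 red cell DEGs. For the sixth, Slc4a1, the difference of -1.95 was not called (adjusted p = 0.126, edgeR quasi-likelihood, Benjamini-Hochberg). It was -2.37 for Bcl6, -3.90 for Dusp2 and -3.88 for Myo5c. Among those that rose it was 1.83 for Hdac11, 1.15 for Mtm1, 2.31 for Nr4a2 and 1.19 for Syt3. The call of Mtm1 was lost without control 5w replicate 1, HFpEF replicate 1 or control 9w replicate 2, and that of RT1-CE16 in 8 of the 12 fits with 1 library left out, whereas the other 11 were called in all 12. The difference for Hba-a1 ran from -6.04 without control 5w replicate 1 to -4.66 without HFpEF replicate 3, and that for Rhd reached -5.79 without untreated replicate 3. The fitted values of Rhd and Myo5c rest on untreated hearts with 3 counts or fewer. RT1-CE16 rose in both time courses, and its fitted difference of -3.06 rests on week 5 hearts at 0.0942, 0 and 0 CPM in control 5w and 3, 1 and 3 counts in HFpEF, at or under the floor of 3 counts, so that neither its size nor its sign is established. All values are on the log2 scale, model minus control.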

How the results depend on the processing

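For untreated versus HFpEF the 24 DEGs became 12 with at least 10 counts in every library, 441 with DESeq2, 1076 with voom, 1 with the 6 libraries alone, 1233 without HFpEF replicate 2 and untreated replicate 2, and 104 without HFpEF replicate 1 and untreated replicate 2, the last chosen after seeing the data. Leaving out 1 library gave from 4 (HFpEF replicate 1) to 933 (untreated replicate 2). The 1817 DEGs of controls became 4276 by adjusted p alone, and from 1206 (without control 9w replicate 2) to 2025 (without control 5w replicate 1). The 1489 of the difference became 2559 with voom and 2473 by adjusted p alone, and from 877 (without untreated replicate 1) to 2241 (without untreated replicate 2). With the replicate number as a block there were 8, 1680 and 1261 DEGs. For untreated versus HFpEF the 8 were all higher, so each of the 10 DEGs that fell lost its call. The deviations of libraries of the same number correlated negatively for replicates 1 and 2 and positively for replicate 3 (r of -0.398, -0.227 and 0.351). Not every library correlated best with its own number, so the number was not taken as a pairing. The change of sign of uncalled genes was as follows. Dusp1 was at -0.044 with voom and -0.093 without both replicates 2, and from -0.12 to 0.25 with 1 library left out. Per1 was at -0.14 and -0.28 in these settings, -0.0023 without untreated replicate 2, and from -0.21 to 0.28 with 1 library left out. Nos3 was at -0.20 without HFpEF replicate 1 and untreated replicate 2, and from -0.15 to 0.53 with 1 left out. Sfrp2 went from -2.52 to 0.021 with 1 left out. Myl4 was at -0.30 with voom, -1.02 without both replicates 2 and -0.54 without HFpEF replicate 1 and untreated replicate 2, and from -0.78 to 6.68 with 1 left out. Nppa was at -2.61, -3.14 and -2.26 in these settings, and from -2.64 to 1.84 with 1 left out. The cause was not tested. Depth limits genes near the floor of 3 counts.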
